A study of Mus musculus with 4 samples.

Results

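The 59 protein-coding Rab GTPase genes of the mouse were examined for occupancy by the transcription factor MIZ-1 in B cells. They were all the protein-coding genes, of 21951 in the GENCODE annotation of mm10, whose symbol is Rab followed by a number and at most a letter and a further digit. The rule used the symbols and no measured value, although the family was chosen with earlier results of these data known. Chromatin immunoprecipitation followed by sequencing (ChIP-seq) had been performed on spleen cells carrying the B lineage marker B220, with the antibody H-190 against MIZ-1. The MIZ-1WT mice carried full-length MIZ-1. In the MIZ-1DPOZ mice, Cre expressed from the B lineage gene Mb1 (Cd79a) removed the floxed POZ domain, so that the B cells made a truncated protein with its zinc fingers. Both were on a C57BL/6 background, and the labels do not say whether the MIZ-1WT mice carried Cre or how many animals were pooled. Each genotype had 1 ChIP library and 1 input library. There were no replicates and therefore no tests. Every interval given is a 95% interval. Those of ratios cover the counting error of fragments only. Those of shares and of medians treat the genes, or for summit positions the peaks, as independent draws, although the 59 are the whole family. No interval covers variation between mice or libraries. The identity of the cells could not be checked against marker genes, because peak lists hold no expression.

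Rab proteins are small GTPases that mark the membranes of the cell. A Rab is switched on by an exchange factor (GEF), recruits effectors that tether, move or fuse vesicles, and is switched off by a GTPase-activating protein (GAP). In B cells, a ligated B cell receptor is internalised into early endosomes that carry Rab5 and is passed on to Rab7-positive late endosomes, while Rab4 and Rab11 serve its return to the surface. MIZ-1 binds DNA through its zinc fingers, and its POZ domain mediates contacts between proteins.

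Some of the windows under the peaks are shown first, to let the bases at which the peaks lay be seen. Each is 101 bases centred on a peak summit, read from the mm10 genome and written 5′ to 3′ on the strand of the gene. None overlaps an annotated exon of the gene. Capitals mark a GC box (GGGCGG) or a CCAAT box (CCAAT) on either strand. The pair from Rab5a, an early endosomal gene, has summits of the genotypes 58 bp apart, and its windows overlap. The summits lay 136 bp apart at Rab5b, also early endosomal, and 110 bp apart at Rab1a, of the early secretory pathway. The windows in each of these last pairs share no base. Of the 25 Rab genes with overlapping promoter peaks of both genotypes, 12 had summits within 100 bp of each other. Rab11a held one of the strongest MIZ-1WT promoter peaks of the family, Rab9 had a promoter peak for MIZ-1WT but not for MIZ-1DPOZ, and Rab28 and Rab31 had a MIZ-1DPOZ promoter peak with and without a MIZ-1WT partner. The window of Rab7b is the single promoter summit of the family that lay in repeated sequence.
Rab5a, MIZ-1WT summit, mm10 chr17:53479842-53479942, plus strand: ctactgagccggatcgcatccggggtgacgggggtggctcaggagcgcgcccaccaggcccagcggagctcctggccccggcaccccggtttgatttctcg
Rab5a, MIZ-1DPOZ summit, mm10 chr17:53479784-53479884, plus strand: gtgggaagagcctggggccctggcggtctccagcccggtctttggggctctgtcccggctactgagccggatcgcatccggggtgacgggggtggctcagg
Rab5b, MIZ-1WT summit, mm10 chr10:128696053-128696153, minus strand: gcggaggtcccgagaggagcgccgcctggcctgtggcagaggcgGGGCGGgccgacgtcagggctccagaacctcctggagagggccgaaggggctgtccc
Rab5b, MIZ-1DPOZ summit, mm10 chr10:128695917-128696017, minus strand: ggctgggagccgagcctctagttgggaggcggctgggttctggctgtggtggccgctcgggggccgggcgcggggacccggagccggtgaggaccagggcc
Rab1a, MIZ-1WT summit, mm10 chr11:20201720-20201820, plus strand: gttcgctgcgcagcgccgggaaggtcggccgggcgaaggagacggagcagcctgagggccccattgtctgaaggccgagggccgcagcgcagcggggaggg
Rab1a, MIZ-1DPOZ summit, mm10 chr11:20201830-20201930, plus strand: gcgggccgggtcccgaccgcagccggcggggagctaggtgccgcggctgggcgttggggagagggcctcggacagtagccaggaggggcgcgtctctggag
Rab11a, MIZ-1WT summit, mm10 chr9:64737452-64737552, minus strand: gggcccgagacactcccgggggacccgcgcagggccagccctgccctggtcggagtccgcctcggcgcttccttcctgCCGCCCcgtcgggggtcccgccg
Rab9, MIZ-1WT summit, mm10 chrX:166479404-166479504, minus strand: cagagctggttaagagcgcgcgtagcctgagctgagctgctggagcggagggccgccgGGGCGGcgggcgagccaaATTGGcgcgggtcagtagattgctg
Rab28, MIZ-1DPOZ summit, mm10 chr5:41707732-41707832, minus strand: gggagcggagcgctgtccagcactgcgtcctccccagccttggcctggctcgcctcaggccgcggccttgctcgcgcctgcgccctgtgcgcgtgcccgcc
Rab31, MIZ-1DPOZ summit, mm10 chr17:65772257-65772357, minus strand: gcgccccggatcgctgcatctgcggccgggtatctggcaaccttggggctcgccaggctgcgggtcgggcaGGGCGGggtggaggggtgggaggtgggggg
Rab7b, MIZ-1DPOZ summit, mm10 chr1:131686790-131686890, plus strand: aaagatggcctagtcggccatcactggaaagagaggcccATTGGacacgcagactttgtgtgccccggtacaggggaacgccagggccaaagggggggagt
The windows of Rab11a, Rab5b (MIZ-1WT), Rab9 and Rab31 each hold 1 GC box. Those of Rab5a, Rab1a and Rab28 are rich in G and C but hold neither motif.

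To ask how many Rab genes were occupied, a promoter peak was defined as a deposited peak that reached from 2000 bp before to 1000 bp after a transcript start of the gene, by at least 1 bp. MIZ-1WT peaks lay at the promoters of 30 of the 59 Rab genes (50.8%, Wilson interval 38.4 to 63.2), against 30.9% of all protein-coding genes. MIZ-1DPOZ peaks lay at 40 of 59 (67.8%, 55.1 to 78.3), against 48.7%. A promoter peak in both lists was present at 27 Rab genes (45.8%, 33.7 to 58.3; 26.6% of all genes), and at 25 of these the peaks overlapped (42.4%, 30.6 to 55.1; 23.6%). In 16 Rab genes no promoter peak was present in either list (27.1%, 17.4 to 39.6), against 47.1% of all genes. In the lists as deposited, the shares of Rab genes with a promoter peak thus lay above the background share, and their intervals did not reach it. For peaks of 1 list alone, the shares in the lists as deposited were at the background. There 3 Rab promoters were listed for MIZ-1WT alone (5.08%, against 4.23%), and 13 for MIZ-1DPOZ alone (22.0%, against 22.0%). The MIZ-1DPOZ list was the longer one, with 78357 peaks to 34209. Its library was an estimated 1.34 times deeper, judged from the peak backgrounds and not from read totals. When it was held to as many peaks as the MIZ-1WT list, by their −log10 q, it placed peaks at 20 Rab promoters (33.9%, 23.1 to 46.6), and the interval then included the 25.3% of all genes. With −log10 q limited to 5 or more, 10 Rab genes had a MIZ-1WT promoter peak (16.9%, 9.48 to 28.5), and the interval included the 9.77% of all genes. At that limit 30 had a MIZ-1DPOZ promoter peak (50.8%, 38.4 to 63.2, against 33.3%), 3 had MIZ-1WT alone (5.08%, 1.74 to 13.9, against 2.67%) and 23 MIZ-1DPOZ alone (39.0%, 27.6 to 51.7, against 26.2%). Equal numbers of peaks gave 15 with MIZ-1WT alone (25.4%, 16.1 to 37.8, against 14.8%) and 5 with MIZ-1DPOZ alone (8.47%, 3.67 to 18.4, against 9.27%). The shares for 1 list alone thus changed with the limits.

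**Figure D1:**
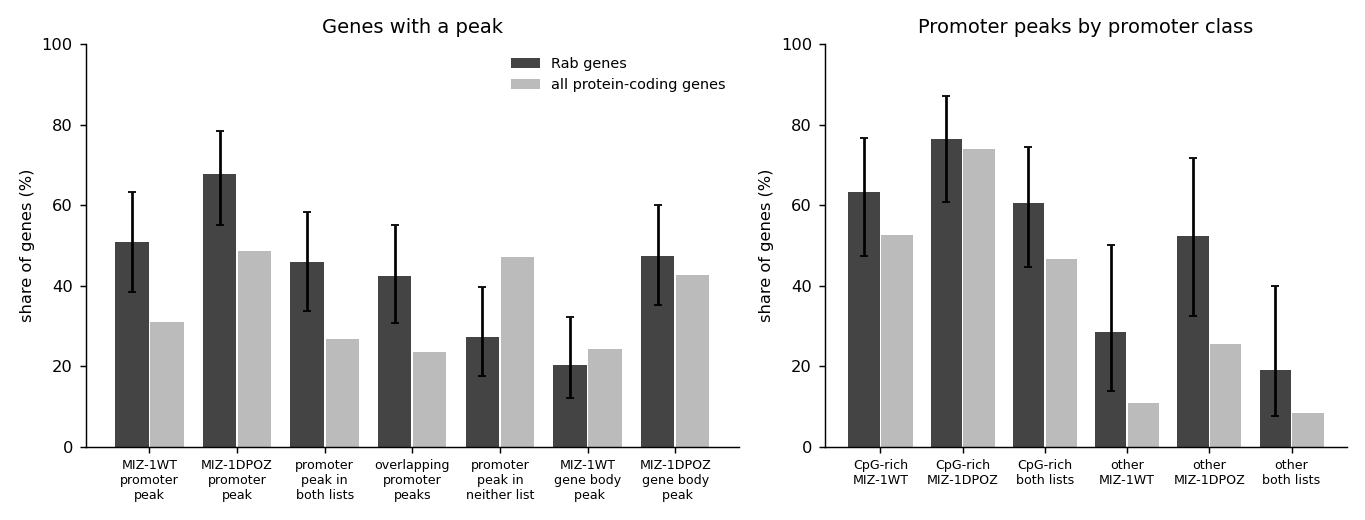
Share of genes (%) with each kind of peak, for the 59 Rab genes (dark bars, with Wilson 95% intervals) and for all 21951 protein-coding genes (light bars); on the right, promoter peaks in genes with a CpG-rich promoter and in the other genes. On the left, Rab intervals lie above the light bars for promoter peaks and below the light bar for a peak in neither list. Both gene body intervals include the light bars. On the right, all 3 intervals of CpG-rich Rab genes include the share of all CpG-rich genes.

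Rab promoters also differed from others in composition. Within 250 bp of a transcript start, the median GC content was 64.1% for Rab genes and 58.9% for all genes, at the most CpG-rich start of each gene. A CpG-rich promoter, with over 55% GC and a CpG ratio (observed over expected) above 0.65, was found at 38 of 59 Rab genes (64.4%) and at 48.0% of all genes. Among genes with such a promoter, MIZ-1WT peaks were present at 24 of 38 Rab genes (63.2%, 47.3 to 76.6) and at 52.6% of all genes. MIZ-1DPOZ peaks were present at 29 of 38 (76.3%, 60.8 to 87.0) and at 73.9%. Within this class the intervals of the Rab genes therefore included the share of all genes. Among the other 21 Rab genes, MIZ-1WT peaks were found at 6 promoters (28.6%, 13.8 to 50.0, against 10.8%) and MIZ-1DPOZ peaks at 11 (52.4%, 32.4 to 71.7, against 25.4%). Here the intervals lay above the share of all genes. This division was made after the counts had been seen, and its definition was changed once. The first definition used only 250 bp before to 49 bp after the 5′ end of the gene and called 30 Rab genes CpG-rich. With it, MIZ-1WT peaks were present at 17 of these 30 (56.7%, 39.2 to 72.6, against 54.3% of all CpG-rich genes) and at 13 of the other 29 (44.8%, 28.4 to 62.5, against 19.0%). The part of promoter composition in the higher share of Rab genes was not tested further.

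The Rab promoter peaks were small. At the best promoter peak of each gene, the MIZ-1WT list had a median of 9 fragments over the summit among Rab genes (range 6 to 13), equal to the median of 9 over all genes with such a peak, where the highest value was 296. The MIZ-1DPOZ list had a median of 13 fragments (range 8 to 24), again equal to that of all genes, with a highest value of 346. The median fold enrichment over the local background was 5.24 for MIZ-1WT and 5.75 for MIZ-1DPOZ at Rab genes, and 5.26 and 5.48 at all genes. The heights of the Rab promoter peaks were thus those of promoter peaks at large.

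Summits lay mostly downstream of the start. Of the 35 MIZ-1WT promoter peaks, 31 had their summit downstream of the nearest transcript start of their Rab gene (88.6%, 74.0 to 95.5, against 63.1% over all genes), and 32 lay within 500 bp of it (91.4%, 77.6 to 97.0, against 80.9%). Of the 52 MIZ-1DPOZ promoter peaks, 40 were downstream (76.9%, 63.9 to 86.3, against 65.5%) and 45 within 500 bp (86.5%, 74.7 to 93.3, against 76.6%). Both MIZ-1DPOZ intervals, and that of MIZ-1WT within 500 bp, included the share over all genes. These intervals count peaks, and 5 Rab genes for MIZ-1WT and 12 for MIZ-1DPOZ held more than 1, so they may be too narrow. The median position was 139 bp downstream for MIZ-1WT and 166 bp for MIZ-1DPOZ. In the MIZ-1WT list 16 summits lay in an untranslated exon, 5 in a coding exon, 11 in an intron and 3 upstream of the gene. In the MIZ-1DPOZ list the numbers were 16, 5, 22 and 9. All 35 MIZ-1WT promoter summits, and 51 of 52 MIZ-1DPOZ ones, lay in sequence found once in the genome. The exception was Rab7b, a late endosomal Rab, whose summit, at −1855 bp from the start, was fully repeat-masked and occurred in 3195 copies. Near other genes the owner of a peak could not be told apart. Measured from the peak edges, 4 MIZ-1DPOZ promoter peaks, at Rab6a, Rab11b, Rab33b and Rab35, lay nearer to a start of another gene, Mrpl48 in the case of Rab6a.

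**Figure D2:**
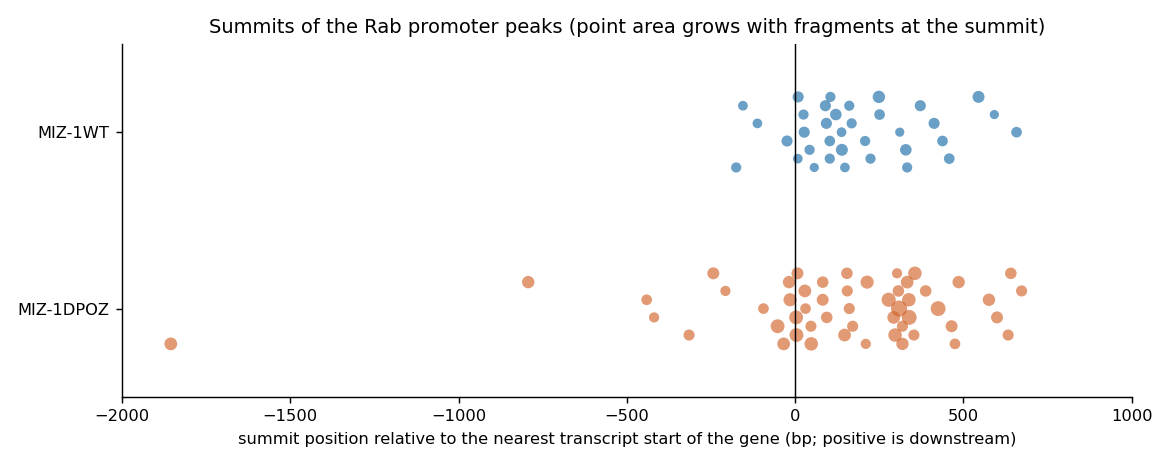
Position (bp) of the summit of each Rab promoter peak relative to the nearest transcript start of its gene, with downstream positive, for the 35 MIZ-1WT and 52 MIZ-1DPOZ peaks; the area of a point grows with the fragments over the summit. Most points lie between the start and 500 bp downstream, and the far left point is Rab7b.

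A GC box lay within 50 bp of 21 of the 35 MIZ-1WT promoter summits of Rab genes (60.0%), against 45.7% of all MIZ-1WT promoter peaks. In the MIZ-1DPOZ list it lay near 23 of 52 (44.2%, against 37.2%). A CCAAT box was present near 2 of 35 and 3 of 52 summits (5.71% and 5.77%, against 4.64% and 4.84%). The E-box CACGTG and the cyclic AMP response element TGACGTCA were not found in any of these Rab windows. Over all promoter peaks they were present in 2.49% and 0.409% of MIZ-1WT windows, and in 1.75% and 0.175% of MIZ-1DPOZ windows. With shares this low, their absence from 35 and 52 windows does not set the Rab genes apart. No intervals were computed for the motif shares, so they are a description only.

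Of the 9 genes of the early endosome and phagosome, 6 had a MIZ-1WT promoter peak (66.7%, 35.4 to 87.9) and 7 a MIZ-1DPOZ promoter peak (77.8%, 45.3 to 93.7), and the 6 were shared and overlapping. These intervals included the shares of the whole family, 50.8% and 67.8%, and the second also that of all genes, 48.7%. Rab5a, Rab5b and Rab5c, which drive fusion of early endosomes, all had overlapping peaks. At Rab5a (chromosome 17), the better of 2 MIZ-1WT peaks had 9 fragments, a fold enrichment of 5.21 and a −log10 q of 4.00, and the MIZ-1DPOZ peak had 12 fragments, a fold of 5.30 and a −log10 q of 5.63. Their summits lay 58 bp apart in the intronic windows shown above, 658 and 600 bp from the start. At Rab5b (chromosome 10), the values were 8 fragments, 4.84 and 3.28 for MIZ-1WT and 16 fragments, 7.24 and 9.96 for MIZ-1DPOZ. Rab5c (chromosome 11) had 8 fragments, 4.84 and 3.28, and 10 fragments, 4.65 and 4.18. The MIZ-1WT peaks at the 3 Rab5 genes thus had 8 or 9 fragments, and Rab5b had the tallest MIZ-1DPOZ promoter peak of them. Rab4a, of fast recycling, had a MIZ-1WT peak of 10 fragments (fold 5.91, −log10 q 5.05) with its summit 9 bp after the start, and a MIZ-1DPOZ peak of 13 fragments (5.96, 6.90) with its summit 18 bp before it. Rab21 and Rab22a were also occupied in both lists. Rab31, which acts between the Golgi and endosomes, had 2 MIZ-1DPOZ peaks of 14 fragments each and no MIZ-1WT peak. Rab20, a phagosomal Rab, and Rab4b had no promoter peak.

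Among the 7 genes of the recycling endosome, 4 were occupied in both lists (57.1%, 25.05 to 84.2, against 26.6% of all genes). MIZ-1DPOZ promoter peaks were present at 5 (71.4%, 35.9 to 91.8, against 48.7%). Both intervals included the share of all genes. The 4 genes in both lists all had overlapping peaks: Rab11a, Rab14, Rab15 and Rab35. Rab11a, the main Rab of recycling endosomes, had one of the strongest MIZ-1WT promoter peaks of the family, with 11 fragments, a fold of 6.45 and a −log10 q of 6.03, 121 bp after the start. Its overlapping MIZ-1DPOZ peak had 12 fragments (5.54, 5.96), and a further MIZ-1DPOZ peak of 9 fragments lay 475 bp after the start. Rab15 had 10 MIZ-1WT fragments (5.87, 5.05) and 17 MIZ-1DPOZ fragments (6.68, 9.47). Rab11b, the close relative of Rab11a, had a MIZ-1DPOZ promoter peak alone, of 10 fragments (4.68, 4.19), which was one of those nearer to another gene. The epithelial genes Rab17 and Rab25 had no peak of any kind.

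Of the 6 genes of the late endosome and lysosome, 4 had a MIZ-1WT promoter peak (interval 30% to 90.3%, against 30.9% of all genes). A MIZ-1DPOZ promoter peak was present at 3 (interval 18.8% to 81.2%, against 48.7%). Both intervals included the share of all genes. Rab7, the Rab of late endosomes and of fusion with lysosomes, had 7 MIZ-1WT fragments (fold 4.30, −log10 q 2.48) and 11 MIZ-1DPOZ fragments (5.11, 5.05), with summits 8 and 94 bp after a start. Both Rab9 genes, which act in transport from late endosomes to the Golgi, had a promoter peak for MIZ-1WT and none for MIZ-1DPOZ. Rab9 (chromosome X) had 10 fragments, a fold of 5.91 and a −log10 q of 5.05, 413 bp after the start, and Rab9b (chromosome X) had 7 fragments (4.30, 2.48), 138 bp after the start. A MIZ-1DPOZ peak of 11 fragments lay in an intron of Rab9, in masked sequence. With Rab36, these were the 3 Rab genes with a promoter peak for MIZ-1WT alone. In the group of lysosome-related organelles, Rab32 and Rab38, which deliver enzymes to melanosomes, had a MIZ-1DPOZ promoter peak only. Rab38 had 16 fragments, a fold of 7.24 and a −log10 q of 9.96, 48 bp after a start, and Rab32 had 11 fragments.

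Among the 14 genes of the endoplasmic reticulum and Golgi, 7 had a MIZ-1WT promoter peak (interval 26.8% to 73.2%, against 30.9% of all genes). A MIZ-1DPOZ promoter peak was present at 9 (interval 38.8% to 83.7%, against 48.7%), 7 of them shared. Both intervals included the share of all genes. Rab1a, which serves transport from the endoplasmic reticulum to the Golgi, had 8 MIZ-1WT fragments (fold 4.84, −log10 q 3.28) and 18 MIZ-1DPOZ fragments (7.64, 11.4), with summits 168 and 278 bp after a start. Its paralog Rab1b had no promoter peak. Rab6b, a Golgi Rab best known from neurons, held the largest −log10 q of the MIZ-1WT promoter peaks of the family, 6.25, with 13 fragments and a fold of 6.20, whereas its better MIZ-1DPOZ peak had 11 fragments (3.44, 2.61). Rab2a had MIZ-1WT peaks of 10 and 7 fragments and MIZ-1DPOZ peaks of 14 and 10, and its best MIZ-1WT peak (5.91, 5.05) did not overlap a MIZ-1DPOZ one. Rab33a had 10 MIZ-1WT fragments (5.91, 5.05) and 8 MIZ-1DPOZ fragments (3.83, 2.61). Before scaling by depth, Rab6b and Rab33a were the only Rab genes, among those with both, whose best MIZ-1WT promoter peak had more fragments than the best MIZ-1DPOZ one. At Rab33b of this group, and at Rab40b, which was given no role, promoter peaks of both lists were present but did not overlap.

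Of the 12 genes of secretion, MIZ-1WT peaks were found at 3 promoters (interval 8.89% to 53.2%, against 30.9% of all genes) and MIZ-1DPOZ peaks at 8 (66.7%, 39.1 to 86.2, against 48.7%), and both intervals included the share of all genes. The 3 shared genes were Rab3a, Rab10 and Rab37. Rab37, a Rab of secretory granules, had the largest −log10 q of the MIZ-1DPOZ promoter peaks of the family, 19.1, with 24 fragments and a fold of 10.6, and its MIZ-1WT peak had 11 fragments (6.45, 6.03). The summits lay 20 bp apart. Rab3a, of regulated exocytosis, had 6 MIZ-1WT fragments (3.57, 1.67) and 16 MIZ-1DPOZ fragments (7.24, 9.96). Rab3b, Rab3d, Rab8b, Rab13 and Rab27b had MIZ-1DPOZ promoter peaks alone. Rab27b, which acts with Rab27a in granule and exosome release, had 20 fragments, a fold of 8.94 and a −log10 q of 14.4. Rab27a had no promoter peak in either list.

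In the group of the cilium and of lysosome positioning, 4 of 4 genes had a MIZ-1WT promoter peak and 3 a MIZ-1DPOZ one. The MIZ-1WT interval (51.01% to 100%) lay above the 30.9% of all genes, although it rests on 4 genes. The MIZ-1DPOZ interval (30.1% to 95.4%) included the 48.7% of all genes. Rab28 had 10 MIZ-1WT fragments (5.83, 4.99) and 20 MIZ-1DPOZ fragments (8.94, 14.4), with summits 312 bp apart. Rab34, which positions lysosomes near the Golgi and acts in cilium formation, had 2 peaks in each list, the best with 12 MIZ-1WT fragments (5.65, 5.20) and 16 MIZ-1DPOZ fragments (6.69, 9.10). Rab36 had a promoter peak for MIZ-1WT alone, with 8 fragments (4.84, 3.28), and a MIZ-1DPOZ peak of 11 fragments in a coding exon of its body. Of the 4 genes that were given no role, Rab40c had 10 MIZ-1WT fragments (5.91, 5.05) and 17 MIZ-1DPOZ fragments (7.67, 11.0), and Rab42 had no peak. With 3 to 14 genes in a group, these counts do not rank the groups.

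**Figure D3:**
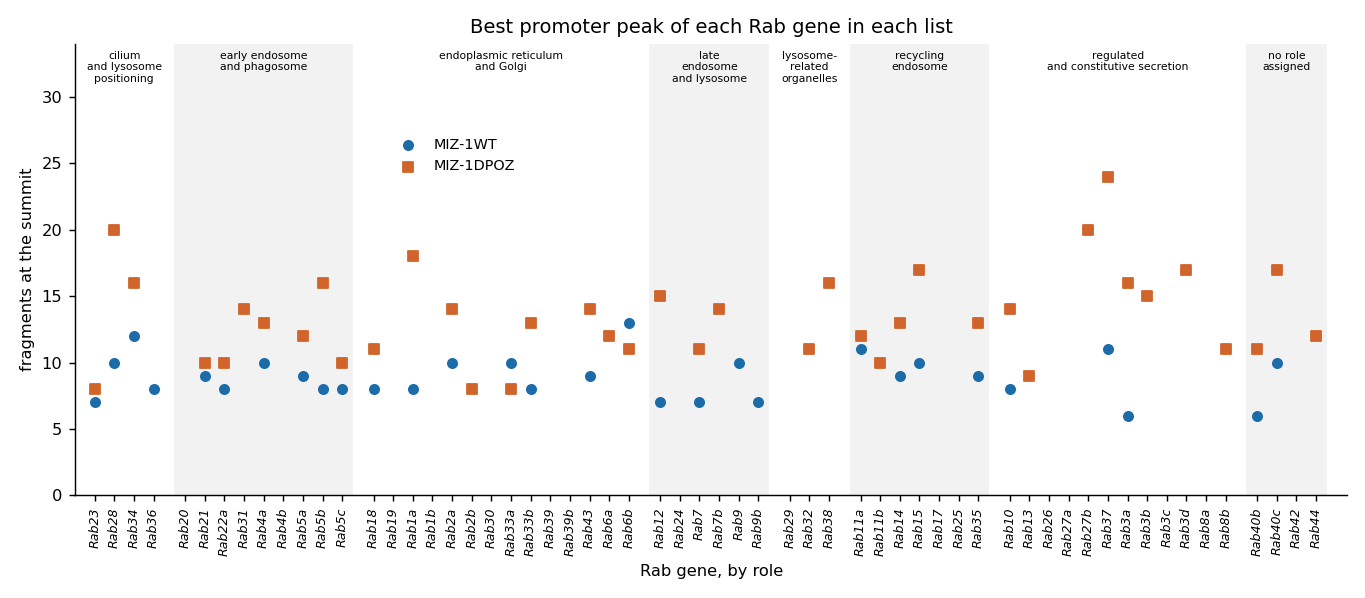
Fragments over the summit of the best promoter peak of each of the 59 Rab genes, grouped by role, for MIZ-1WT (circles) and MIZ-1DPOZ (squares), as deposited and not scaled by depth; a gene without a symbol had no promoter peak. MIZ-1WT values run from 6 to 13 and MIZ-1DPOZ values from 8 to 24, and the secretion group holds the highest square, Rab37.

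To compare the heights of the 25 overlapping pairs, the MIZ-1DPOZ fragments were divided by the MIZ-1WT fragments and by the estimated depth ratio of 1.34. The median log2 ratio was 0.11 for Rab genes (−0.04 to 0.38, from order statistics) and 0.08 for all 5173 genes with overlapping promoter peaks. It was above 0 at 15 Rab genes and below 0 at 10. The highest ratio was that of Rab3a (1.99, exact binomial interval 0.739 to 6.21), followed by Rab1a (1.68, 0.694 to 4.46) and Rab37 (1.63, 0.767 to 3.68). The lowest were those of Rab6b (0.574, 0.225 to 1.42) and Rab33a (0.597, 0.205 to 1.68). For Rab5a, Rab5b and Rab5c the ratios were 0.995 (0.385 to 2.67), 1.49 (0.602 to 4.03) and 0.932 (0.331 to 2.72), and for Rab7 and Rab11a 1.17 (0.415 to 3.57) and 0.814 (0.329 to 2.04). All 25 intervals included 1, so no difference in height between the libraries was detectable at this depth at any of these genes, and a change of up to several fold could not be seen. With the local backgrounds in place of the depth ratio, the median log2 ratio of Rab genes turned to −0.12, and that of all genes to −0.19.

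**Figure D4:**
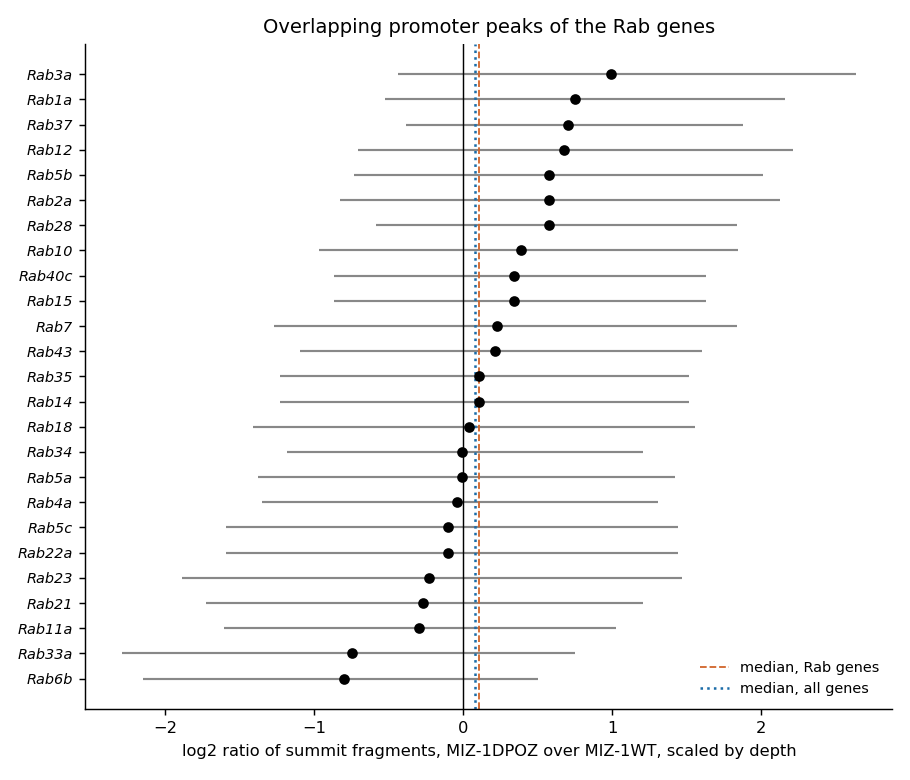
Depth-scaled log2 ratio of summit fragments, MIZ-1DPOZ over MIZ-1WT, for the 25 Rab genes with overlapping promoter peaks (points) with exact 95% intervals (lines); broken lines mark the medians of Rab genes (0.11) and of all genes (0.08). Each of the 25 lines crosses 0.

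Peaks in gene bodies did not set the Rab genes apart. A peak within the gene but outside its promoters was present in 12 Rab genes for MIZ-1WT (20.3%, 12.0 to 32.3, against 24.2% of all genes) and in 28 for MIZ-1DPOZ (47.5%, 35.3 to 60.0, against 42.7%). Per Mb of full gene length, Rab genes held 7.90 MIZ-1WT and 19.1 MIZ-1DPOZ such peaks, and all genes 9.24 and 23.6. The promoter parts were not taken off this length, so these are not densities outside promoters. More than 50% of the bases within 100 bp of the summit were repeat-masked in 12 of the 17 MIZ-1WT and 17 of the 41 MIZ-1DPOZ body peaks, compared with 0 of 35 and 1 of 52 promoter peaks. Without such peaks, 5 Rab genes had a MIZ-1WT body peak (8.47%, against 13.6% of all genes). Body peaks of both lists overlapped in 6 Rab genes, namely Rab2a, Rab3c, Rab4a, Rab4b, Rab10 and Rab30. Rab10, of exocytosis and endosomal recycling, had an intron peak with 16 fragments in each list (fold 9.14 for MIZ-1WT and 7.24 for MIZ-1DPOZ), taller than its promoter peaks of 8 and 14 fragments and nearer to a start of the antisense gene Rab10os. Rab4a had an intron peak with 14 fragments in each list. The tallest body peaks were MIZ-1DPOZ peaks in introns of Rab30 (63 fragments, 380 copies of the summit sequence) and Rab27b (45 fragments, 34 copies). A MIZ-1DPOZ peak of 30 fragments lay in an untranslated exon of Rab11b, in sequence with 3 copies. For sequence with several copies, the site from which the reads came cannot be told apart.

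Of the 16 Rab genes without a promoter peak, 6 held a body peak, namely Rab1b, Rab3c, Rab4b, Rab19, Rab27a and Rab30. That of Rab27a was a MIZ-1DPOZ peak with 19 fragments, a fold of 8.52 and single-copy sequence, in an untranslated exon and nearest to a start of the neighbouring gene Khdc3. The remaining 10, Rab8a, Rab17, Rab20, Rab24, Rab25, Rab26, Rab29, Rab39, Rab39b and Rab42, had no peak at all. Because the lists hold only peaks past a cutoff, this says that no enrichment was called, and not that MIZ-1 was absent.

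**Figure D5:**
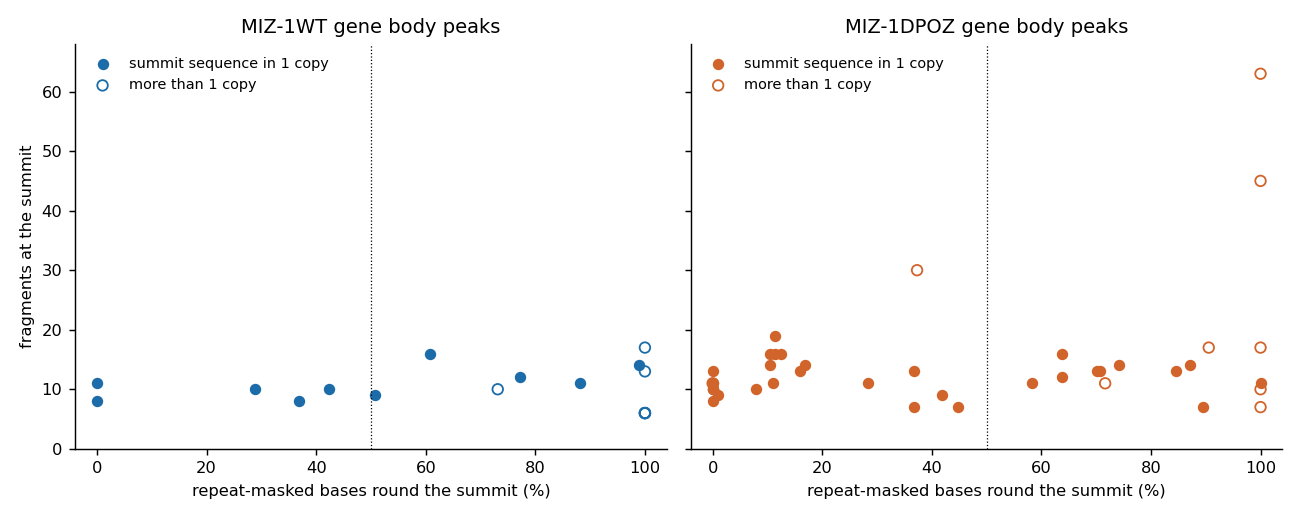
Fragments over the summit of each Rab gene body peak against the share of repeat-masked bases (%) within 100 bp of it, for MIZ-1WT (left, 17 peaks) and MIZ-1DPOZ (right, 41 peaks); filled points have a summit sequence found once in the genome and open points more than once, and the dotted line marks 50%. The 3 tallest MIZ-1DPOZ points are all open.

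The genes that switch Rab proteins on and off, attach their lipid anchor or bind them when active were examined as a list of 122. A MIZ-1WT promoter peak was present at 73 of them (59.8%, 51.0 to 68.1), a MIZ-1DPOZ one at 89 (73.0%, 64.5 to 80.0) and both at 63 (51.6%), also above the shares of all genes. These shares were no lower than those of the Rab genes. CpG-rich promoters made up 73.0% of this list. Of the 33 exchange factors, 22 had a MIZ-1WT (66.7%) and 28 a MIZ-1DPOZ promoter peak (84.8%), against 30.9% and 48.7% of all genes. Among the 35 GAPs the numbers were 25 (71.4%) and 28 (80.0%), and among the 47 effectors 24 (51.1%) and 31 (66.0%). Among the 7 genes of prenylation and membrane cycling they were 2 and 2 (28.6% each). The tallest promoter peaks of this list and of the Rab genes lay at Rbsn, which encodes rabenosyn-5, an effector of Rab5 and Rab4 on early endosomes. The MIZ-1WT peak at Rbsn (chr6:92214732-92215112) had 64 fragments, a fold of 21.3 and a −log10 q of 66.3, and the MIZ-1DPOZ peak (chr6:92214621-92215035) had 53 fragments, a fold of 20.2 and a −log10 q of 55.1. Their summits lay 27 and 54 bp after the start, in sequence free of repeats, and the depth-scaled ratio was 0.618 (0.421 to 0.903). The tallest peak of any Rab gene promoter, at Rab37, had 24 fragments. Tbc1d14, a GAP-domain protein that binds Rab11 and acts in autophagy, had 24 MIZ-1WT fragments (fold 11.1) and 16 MIZ-1DPOZ fragments (fold 6.39), with a ratio of 0.497 (0.247 to 0.976). Intervals of both genes lay below 1, but these genes were taken as those leading their groups in the MIZ-1WT list, so their ratios are a description and carry no test. The next GAP in the MIZ-1WT list was Tbc1d12, with 16 and 17 fragments, and the leading ones in the MIZ-1DPOZ list were Rabgap1l (14 and 23) and Sgsm2 (9 and 23). Of the effectors, Appl2 had 13 fragments in each list and Rab11fip1 10 and 31. Of the exchange factors, Dennd1b had 12 and 14, Rab3ip 12 and 12 and Gapvd1 9 and 20, while Rabgef1, an exchange factor for Rab5, had a MIZ-1DPOZ promoter peak alone, of 21. In the prenylation group, Chml, a Rab escort protein, had 14 and 13 fragments, Rabggtb had 9 in the MIZ-1WT list alone, and Gdi2 had 13 in the MIZ-1DPOZ list alone.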

How the data were processed

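ChIP-seq peaks of MIZ-1 had been called in 1 ChIP library per genotype, each against its input, and the 2 peak lists were used as deposited. The study's methods name Trimmomatic, bwa and MACS2 with mm10, whereas the submitters' processing notes name Bowtie2 2.2.6 and MACS2 2.1.0. Which aligner made the lists cannot be told apart, and the cutoff and the handling of duplicate reads are not given in the sources used here. For each peak the authors deposited a fold enrichment (a ratio) and the −log10 of a p-value and of a q-value. Summit fragments and local backgrounds were solved from the fold and the p-value. On simulated peaks, 100% of 2000 were recovered per list. These were made with the same formula that was inverted, so their recovery checks the solving only. In the deposited lists, a whole number of fragments matched the values closely for 99.97% of MIZ-1WT and 99.99% of MIZ-1DPOZ peaks. The smallest −log10 q was 1.03 for MIZ-1WT and 1.01 for MIZ-1DPOZ. The depth ratio came from the most frequent background of each list (0.860 and 1.35 fragments) divided by its smallest peak width (148 and 173 bp). Total reads were not analysed here.

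Genes came from GENCODE M21 basic on GRCm38 (mm10). The Rab genes, their roles and the list of 122 regulators and effectors were chosen with earlier results of these data known, and roles were assigned from general knowledge. Values are given for the 10 Rab genes that led each list by −log10 q, for those occupied at the promoter by MIZ-1WT alone, for 9 genes chosen by name (Rab1a, Rab4a, Rab5a, Rab5b, Rab5c, Rab7, Rab11a, Rab11b, Rab27a), and for the leading 2 regulators of each group and list. Further genes were named after their values were seen. Repeats were the soft-masked bases of the reference within 100 bp of a summit, and copies were the median count of 5 sequences of 50 bases. Python 3.11.15, numpy 2.4.6, pandas 2.3.3, scipy 1.17.1 and matplotlib 3.10.9 were used.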

Additional observations from a re-analysis of the deposited data

How the results depend on the processing

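No paired analysis was possible because the values come from no test and a genotype was represented by a single ChIP library. Of 92 recomputed values, 72 stayed within 1.5 times the reported count, or within the interval of the median, and 20 did not. With −log10 q limited to 5 or more, 10 Rab genes were occupied at the promoter by MIZ-1WT (16.9%, against 9.77% of all genes). Those with both numbered 7 (11.9%, 5.87 to 22.5, against 7.1%) and with MIZ-1DPOZ only 23 (38.98%, against 26.2%). Those with neither numbered 26 (44.1%, 32.2 to 56.7, against 64.03%). Overlapping peaks were present at 6 (10.2%, 4.74 to 20.5, against 6.05%). A MIZ-1WT body peak was present in 7 (11.9%, 5.87 to 22.5, against 9.58%). The intervals for both, overlapping and body peaks included the share of all genes, and that for neither lay below it. With equal numbers of peaks in both lists, 20 had a MIZ-1DPOZ promoter peak (33.9%, against 25.3% of all genes) and 15 both (25.4%, against 16.0%). MIZ-1WT only had 15 (25.4%, against 14.8%) and MIZ-1DPOZ only 5 (8.47%, against 9.27%). Overlapping peaks were present at 14 (23.7%, against 13.6%) and a MIZ-1DPOZ body peak at 14 (23.7%, against 24.2%). The median log2 ratio was 0.48, and 0.31 for all genes. Leaving out repeat summits gave 5 with a MIZ-1WT body peak (8.47%, against 13.6% of all genes). A reciprocal overlap of at least 50% left 11 overlapping genes (18.6%, against 12.1%) and summits within 100 bp left 12 (20.3%, against 14.2%). Scaling by local background gave a median log2 ratio of −0.12. The restrictions to CpG-rich promoters were chosen after seeing the data. Under the first definition tried, at the 5′ end of the gene, 17, 23 and 17 of 30 Rab genes had a MIZ-1WT, a MIZ-1DPOZ or both promoter peaks. Their shares were 56.7%, 76.7% and 56.7%, against 54.3%, 74.5% and 48.1% of all CpG-rich genes. Under the definition used in the report, the counts were 24, 29 and 23 of 38. Those shares were 63.2%, 76.3% and 60.5%, against 52.6%, 73.9% and 46.6%. Fewer genes enter under these restrictions by construction. A higher limit, a shortened MIZ-1DPOZ list and the removal of repeat summits only take peaks away. They can therefore only lower the counts of genes with a peak in a list, in both or overlapping. Stricter overlap rules can likewise only lower the overlapping count. With the MIZ-1WT list unchanged, shortening the MIZ-1DPOZ list cannot lower the count for MIZ-1WT alone. The cause of the other changes was not tested. The low summit counts limit what can be said of heights, and the single library per genotype leaves variation between mice unmeasured.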
